A study of Mus musculus with 9 samples.

Results

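The 10 genes described here are among those whose counts were down to 0, or to at most 3 per library, in all libraries of at least 1 condition of a RIP-seq experiment, and each was followed transcript row by transcript row. They comprise *Pbrm1*, *Gm6713*, *Fez1*, *Abcb1a*, *Mrgprx2*, *Ggt1*, *Srsf12*, *Rps6kb2*, *Lims2* and *Cetn4*. These 10 genes were picked from 18555 protein-coding genes with a count because their sum over matched rows was 0 or near 0 in 1 of the 3 conditions, so the low condition of each gene is a description and carries no test. They have 14 rows among the 107384 rows of the table.

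RIP-seq sequences the RNA that comes down with a protein, here CELF2, an RNA-binding protein that acts on splicing in the nucleus and on mRNA stability and translation in the cytoplasm. All 9 libraries came from cytoplasm prepared from the cortex of *Celf2* knock-in (KI) mice, heterozygous for CELF2 p.R493H, at P0, the day of birth, and no wild-type group was compared. Of these, 3 were CELF2-KI RIPs, made with a rabbit antibody to CELF2, 3 were IgG RIPs, made with normal rabbit IgG, and 3 were input, an aliquot set aside before the antibody step. The fraction comes from whole cortex, which the labels list as neurons, radial glia, astrocytes, OPCs, microglia and endothelial cells, so each value is over all of these cells together.

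A gene is written in RefSeq as several transcript models, some curated (NM accessions) and some predicted (XM for coding and XR for noncoding models). A program such as kallisto assigns each read to the models whose sequence it fits and divides a read that fits several among them, so an estimated count that is not a whole number includes reads shared with another row. The sum of a gene is then the sum over whichever of its models are in the table.

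The deposited table totalled 15919600 to 20052716 estimated counts for each of the CELF2-KI RIPs, 17365561 to 28773130 for the IgG RIPs and 69125700 to 105116427 for the input libraries. CPM are counts scaled by the adjusted protein-coding size of each library described under processing, not by these totals. On that scale 3 counts, the floor used here, corresponded to 0.231 to 0.268 CPM in the CELF2-KI RIPs. The same 3 counts corresponded to 0.188 to 0.297 CPM in the IgG RIPs and 0.0330 to 0.0485 CPM in the input libraries. Input was therefore the condition in which a count of 0 set the lowest limit. Of the 107384 rows, 20670 matched no gene here and held 9.27% to 43.5% of a library's counts, with predicted coding models among them holding 6.40% to 9.16%. Curated noncoding models among them differed by condition, with 10.9% to 35.1% in the IgG RIPs. They held 0.860% to 1.80% in the CELF2-KI RIPs and 0.583% to 0.878% in the input libraries. The 45 accessions that the gene table lists for these 10 genes and that no row carries are not used here, and a row outside the gene table could hold reads of the same genes. A sum of 0 below is thus a sum over the matched rows, and that limit applies to all 10 genes, above all to those with missing models.

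The coverage of models differed among the 10 genes. The gene table lists 59 accessions for them, of which 14 had a row. *Abcb1a* (2 of 2), *Mrgprx2* (1 of 1) and *Cetn4* (1 of 1) had every listed model, and the other 7 had some missing. *Gm6713* had 1 of 11, *Rps6kb2* 3 of 13, *Fez1* 1 of 8, *Ggt1* 2 of 9, *Pbrm1* 1 of 6, and *Srsf12* and *Lims2* 1 of 4 each. Of the 14 rows, 10 were curated, 4 were predicted, and 5 carried the same version number as the gene table. Of the 126 values in these rows, 59 were exactly 0, 11 were residues above 0 and under 0.5 count, and 56 were at least 0.5 count. Of the 60 values above 0.005, 17 were whole numbers within 0.005 and 43 were not. *Mrgprx2* and *Cetn4* were the members whose nonzero values were all whole, with 9 of 9 and 6 of 6 values. Over the whole table, 12.2% of nonzero values were whole.

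**Figure D1:**
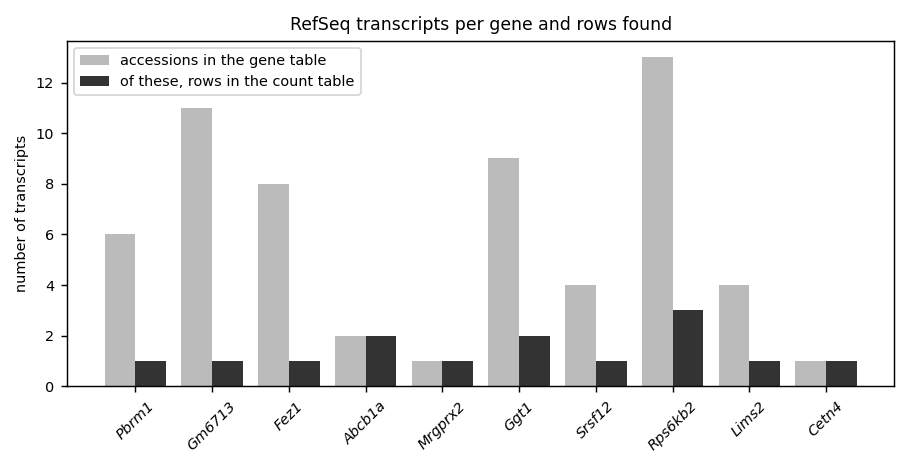
Number of RefSeq accessions that the gene table lists for each gene (grey bars) and how many of them have a row in the count table (black bars). *Abcb1a*, *Mrgprx2* and *Cetn4* have all of their accessions, and *Rps6kb2* has 3 of 13.

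At the floor in input were 7 genes, *Fez1*, *Abcb1a*, *Mrgprx2*, *Ggt1*, *Srsf12*, *Pbrm1* and *Gm6713*. *Fez1* encodes a kinesin adaptor for axonal transport and lies at chr9:36821398-36878926 (all coordinates GRCm38.p6). Its row, NM_183171.4, held 147.2, 88.0 and 622.2 counts in IgG RIP, 59.1, 0 and 55.2 in CELF2-KI RIP, and 0 in each input library. IgG RIP replicate 3 was the highest library and CELF2-KI RIP replicate 2 fell to the level of input. The means were 20.8 ± 20.6 CPM (SD, n = 3) in IgG RIP and 3.21 ± 2.78 CPM in CELF2-KI RIP. An input library at the IgG RIP mean would have held 1288 to 1891 counts. At the level of the lowest IgG RIP library it would have held at least 539. None of the 5 values at or above 0.5 count was whole, and 1 of 8 listed *Fez1* models had a row.

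*Abcb1a* encodes P-glycoprotein, the drug efflux pump of brain endothelium, and lies at chr5:8567091-8748575. Its curated row, NM_011076.2, held 0.04, 35.0 and 63.4 counts in the CELF2-KI RIPs, 10.2, 0 and 216.8 in the IgG RIPs, and under 0.01 in each input library. The predicted row, XM_006503556.3, held counts in a single library, 13.8 in IgG RIP replicate 2, where the curated row was at 0. Within IgG RIP the predicted row thus took the place of the curated row in that 1 library. The curated row held a mean of 66.7% ± 57.7 of the gene over the IgG RIPs (SD, n = 3), and 94.3% with their counts pooled. In the 2 CELF2-KI RIP libraries with counts it held 100%. The CELF2-KI RIPs averaged 2.77 ± 2.81 CPM and the IgG RIPs 5.86 ± 8.41 CPM. Both listed models had a row, so no *Abcb1a* model of the gene table was missing. The endothelial markers *Cldn5*, *Pecam1*, *Flt1*, *Cdh5* and *Slco1c1* summed to 170 to 259 CPM in the input libraries, 99.9 to 212 CPM in the IgG RIPs and 104 to 133 CPM in the CELF2-KI RIPs, and none of the 5 was at 0 in any condition. Within that list the genes went different ways: *Cldn5*, *Cdh5* and *Slco1c1* had their highest means in input, at 92.3, 56.9 and 25.6 CPM, whereas *Flt1* stood at 30.6 CPM in input against 41.3 CPM over the CELF2-KI RIPs, and *Pecam1* at 20.2 against 24.4 CPM. The part of endothelial RNA in the *Abcb1a* values was not tested.

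*Mrgprx2* encodes a Mas-related G protein–coupled receptor and lies at chr7:48478619-48499270. Its row, NM_001034868.3, held 4, 7 and 4 counts in the CELF2-KI RIPs, 19, 22 and 16 in the IgG RIPs, and 3, 2 and 1 in the input libraries. All 9 values were whole, and input was low without being 0. The CELF2-KI RIPs averaged 0.405 ± 0.117 CPM, the IgG RIPs 1.51 ± 0.585 CPM and the input libraries 0.0286 ± 0.0168 CPM (SD, n = 3). These are the values for which the gene was chosen, and no fold over input is given. The floors used throughout cover counting error only.

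*Ggt1* encodes gamma-glutamyltransferase, which cleaves extracellular glutathione, and lies at chr10:75561076-75586193. Row NM_008116.3 held 11, 0 and 0 counts in the CELF2-KI RIPs, 8.4, 0 and 9.44 in the IgG RIPs, and 0 in input. Row NM_001305992.1 held 0, 10.7 and 1.56 counts in the IgG RIPs, 0.01 in input replicate 2 and 0 elsewhere. Both rows are curated, and as with *Abcb1a* a different row carried the gene in IgG RIP replicate 2. Summed, the gene reached 0.793 ± 0.295 CPM in IgG RIP and 0.293 ± 0.508 CPM in CELF2-KI RIP (SD, n = 3), and the second mean rested on 1 library.

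*Srsf12* encodes a serine- and arginine-rich splicing factor and lies at chr4:33208991-33233343. Row NM_177774.4 held 13.5, 14.3 and 5.72 counts in the CELF2-KI RIPs, 26.1, 6.74 and 0 in the IgG RIPs, and 0, 0.01 and 0 in the input libraries. IgG RIP replicate 3, highest for *Fez1* and *Abcb1a*, was at 0 here. The CELF2-KI RIPs averaged 0.911 ± 0.326 CPM and the IgG RIPs 0.773 ± 0.816 CPM (SD, n = 3).

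*Pbrm1* and *Gm6713* held counts in CELF2-KI RIP and were at the floor in both other conditions. *Pbrm1* encodes polybromo 1, the bromodomain subunit of the PBAF chromatin remodeler, and lies at chr14:31019138-31121592. Its row, NM_001081251.1, held 187.5, 16 and 145.9 counts in CELF2-KI RIP and 0 in all 6 control libraries, after a residue under 0.01 in input replicate 1 was rounded. CELF2-KI RIP replicate 2 was the low library, at 1.23 CPM against 15 and 13 CPM. The mean was 9.74 ± 7.43 CPM (SD, n = 3), for which 602 to 884 counts would have stood in an input library. At the level of CELF2-KI RIP replicate 2 an input library would have held at least 76.2. Of the listed *Pbrm1* models, 1 of 6 had a row.

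*Gm6713* is a predicted gene at chr10:85694381-85710999 with no role named here. Its predicted row, XM_006514364.3, held 12.4, 9.79 and 12.6 counts in the CELF2-KI RIPs and 0 in all 6 other libraries, again apart from a residue in input replicate 1. The 3 CELF2-KI RIP libraries lay close together, at 0.963 ± 0.195 CPM (SD, n = 3), and none of the values was whole. Of its listed models, 1 of 11 had a row.

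*Rps6kb2*, *Lims2* and *Cetn4* were the genes at 0 in CELF2-KI RIP. *Rps6kb2* encodes S6 kinase 2, which acts downstream of mTORC1, and lies at chr19:4156792-4163383. Its curated row, NM_021485.2, was at 0 in all 9 libraries. The predicted coding row, XM_006531813.3, held 25.6, 10.5 and 62.5 counts in IgG RIP and 50.8, 139.0 and 41.1 in input. The predicted noncoding row, XR_388263.3, held 90.3, 6.46 and 51.0 counts in input, 0 in IgG RIP and 0.03 in CELF2-KI RIP replicate 3. The coding row therefore carried all *Rps6kb2* counts in IgG RIP but 36.0% to 95.6% of them in the input libraries (58.7% ± 32.2, SD, n = 3). Summed, the gene averaged 2.39 ± 1.80 CPM over the IgG RIPs and 1.78 ± 0.407 CPM over the input libraries (SD, n = 3). A CELF2-KI RIP library at the level of input would have held 19.9 to 23.1 counts.

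*Lims2* encodes PINCH2, a LIM-domain adaptor that joins integrin-linked kinase and parvins at focal adhesions, and lies at chr18:31922293-31958620. Row NM_144862.3 held 13.8, 9.98 and 65.1 counts in IgG RIP, 71.1, 91.0 and 94.1 in input, and 0 in each CELF2-KI RIP. IgG RIP replicate 3 was again the high library, at 4.66 CPM against 0.876 and 0.991 CPM. The IgG RIPs averaged 2.18 ± 2.15 CPM and the input libraries 1.22 ± 0.270 CPM (SD, n = 3), and 13.6 to 15.8 counts would have stood for the level of input in a CELF2-KI RIP library.

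*Cetn4* encodes a centrin, a calcium-binding protein of centrioles and cilia, and lies at chr3:37308627-37312446. Row NM_145825.2 held 3, 4 and 11 counts in IgG RIP, 45, 75 and 31 in input, and 0 in each CELF2-KI RIP, all of them whole. Its only listed model had a row, so no model of the gene table was missing. The whole values gave no sign of division with another row, but do not exclude shared reads. The depth behind it was small: at the 0.681 ± 0.165 CPM of input (SD, n = 3) each CELF2-KI RIP library would have held 7.63 to 8.84 counts, and at the 0.458 ± 0.305 CPM of IgG RIP 5.13 to 5.94 counts.

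**Figure D2:**
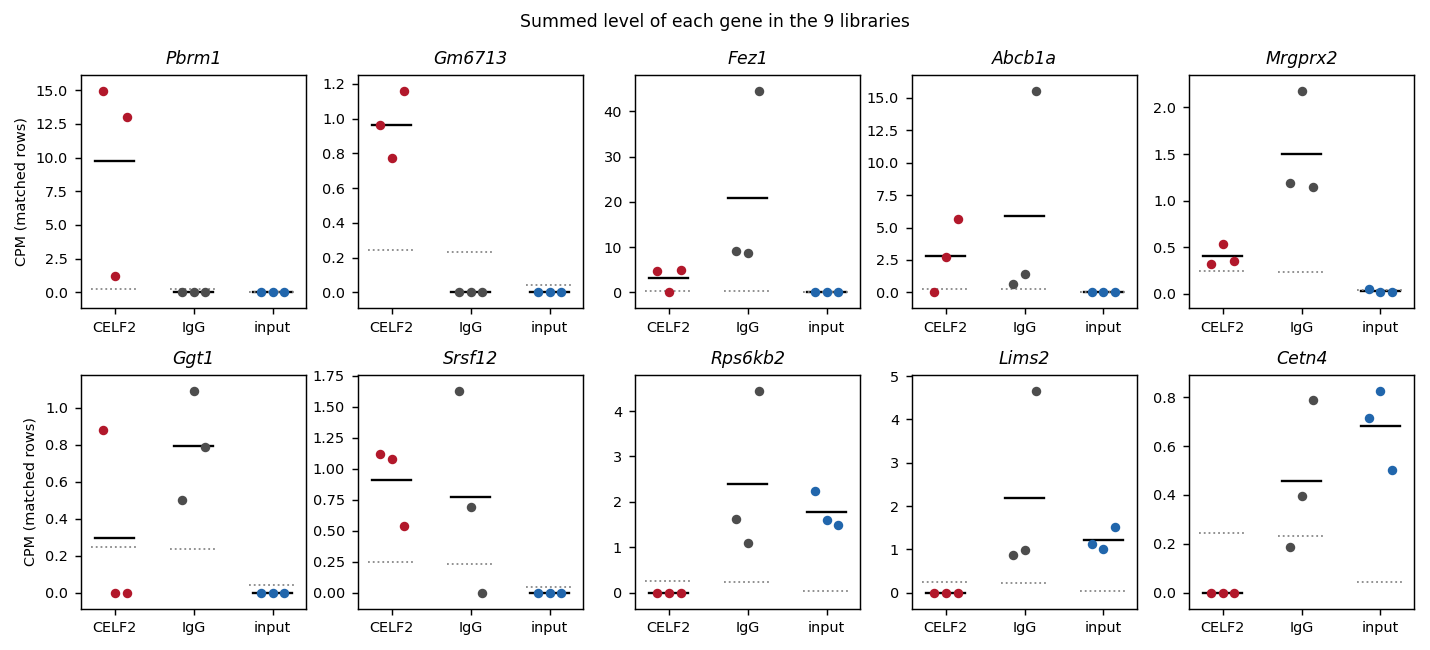
CPM of each gene in the 9 libraries, with points for libraries, a black line for the mean of 3 and a dotted line for the level of 3 counts in that condition. *Fez1* reaches 44.6 CPM in 1 IgG RIP and is at 0 in input, while *Lims2*, *Cetn4* and *Rps6kb2* are at 0 in CELF2-KI RIP.

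**Figure D3:**
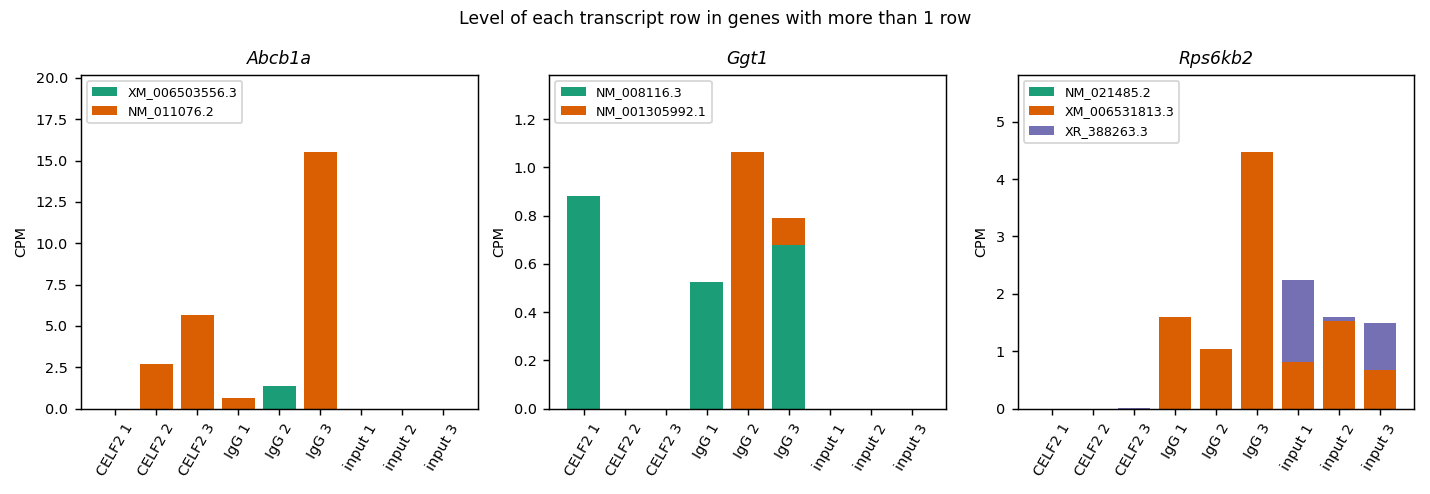
CPM of each transcript row, stacked per library, for the 3 genes with more than 1 row. *Abcb1a* and *Ggt1* are carried by different rows in different IgG RIPs, and the noncoding row of *Rps6kb2* has counts in input.

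By the definition used over the whole table, at most 3 counts in each library of a condition and a mean of at least 1 CPM in another, 81 of 18555 genes (0.437%) showed such a pattern. *Pbrm1*, *Fez1*, *Abcb1a*, *Mrgprx2*, *Rps6kb2* and *Lims2* were among the 81, and the other 4 did not reach 1 CPM in any condition. By condition, the CELF2-KI RIPs had 0.313% of genes at the floor, the IgG RIPs 0.124% and the input libraries 0.0431%, the last being 8 genes with 4 members among them. For single transcript rows the pattern was far more frequent, at 5734 of 58602 rows (9.78%). In 7031 of 7115 cases of a row at the floor in a condition (98.8%), the sum of its gene was not at the floor there. Among the 81 genes, 38 (46.9%) had every listed model in the table and 14 (17.3%) had only whole values, against 55.4% and 15.4% of the 14706 genes that reached 1 CPM in a condition. Among the 33 of them whose sums were 0 in each library of a condition after rounding to whole counts, 5 of which are members, 7 (21.2%) had every listed model and 0 had only whole values within 0.005. *Cetn4*, which stayed under 1 CPM, is not counted among the 81. With predicted rows left out, 391 genes were at the floor, of which 65 were among the 81.

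The 5 other floor genes with the highest level elsewhere give the scale of the pattern. *Mpeg1*, *Vamp7*, *Zfp821* and *Wdr54* were at 0 in the 3 IgG RIPs, and *Zfpl1* was at 0 in both kinds of RIP. *Mpeg1*, a macrophage perforin-like protein, held 357, 121 and 201 counts in CELF2-KI RIP and 581, 666 and 248 in input. *Zfpl1* held 838, 761 and 883 counts in input, and all 5 genes had at least 1 listed model without a row.

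The libraries of a condition differed from each other by more than depth for some of the 10 genes. The measure was the chi-square per degree of freedom of the 3 counts against equal CPM, set beside genes within 2-fold of the same total count. *Fez1* stood at 269 in IgG RIP, where the median of such genes was 7.92, above 99.5% of them. *Abcb1a* stood at 162 in IgG RIP, above 99.7%, and at 35.0 in CELF2-KI RIP, above 99.1%. *Pbrm1* stood at 73.6 in CELF2-KI RIP, above 99%, and *Fez1* at 31.3 there, above 98.6%. The values of the other members were lower. *Mrgprx2* and *Cetn4*, with whole counts, stood at 0.427 and 2.71 (*Mrgprx2* in CELF2-KI RIP and IgG RIP) and at 3.03 and 2.78 (*Cetn4* in IgG RIP and input). Among genes without whole counts, *Gm6713* stood at 0.480 and *Srsf12* at 1.34 in CELF2-KI RIP, and *Ggt1* at 1.46 in IgG RIP, above 20.6% of genes of like count. In the other kind of RIP, *Srsf12* stood at 12.1 (above 83.9%) and *Ggt1* at 10.6 (above 63.9%). *Lims2* and *Rps6kb2* stood at 28.6 (above 93.3%) and 17.2 (above 84.6%) in IgG RIP. Among the IgG RIPs, *Fez1*, *Abcb1a*, *Rps6kb2*, *Lims2* and *Cetn4* were highest in replicate 3, while *Mrgprx2*, *Ggt1* and *Srsf12* were not. The share of all genes highest in that library was not counted.

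**Figure D4:**
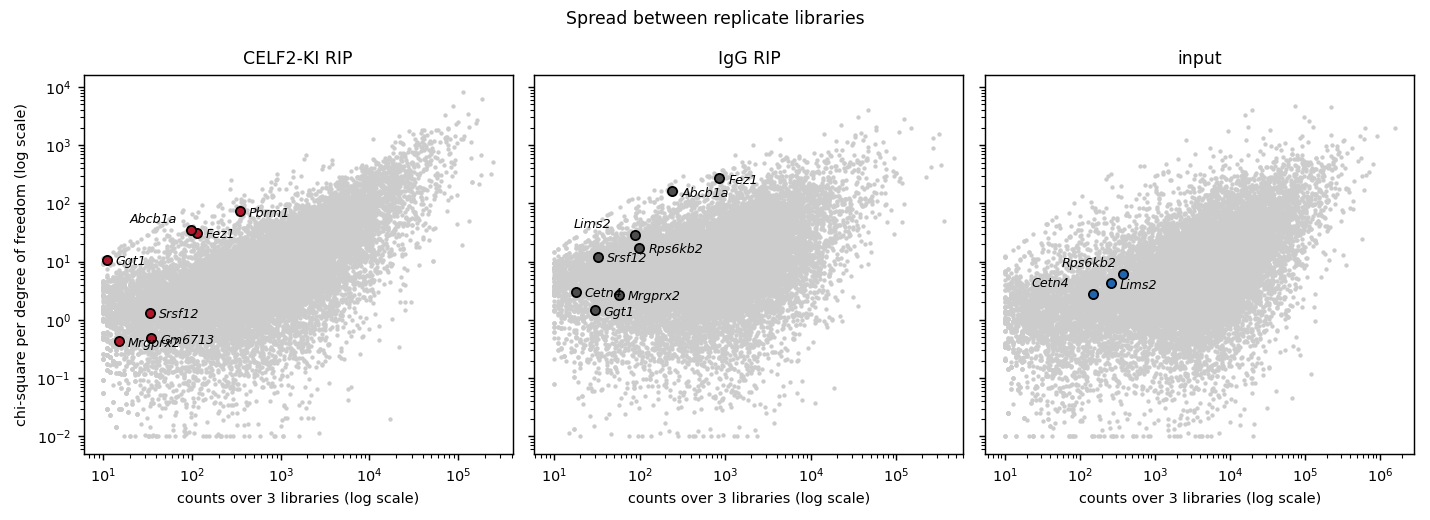
Chi-square per degree of freedom of the 3 replicate counts against their summed count, both on log axes, for all genes (grey) and the 10 genes where they hold at least 10 counts. *Fez1* and *Abcb1a* in IgG RIP and *Pbrm1* in CELF2-KI RIP lie at the upper edge, at 269, 162 and 73.6.

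For 8 genes, 2 conditions remained that the choice of genes had not used as the low one, and these were compared with edgeR's quasi-likelihood test over all 15263 tested genes, calling a Benjamini-Hochberg FDR under 0.01 and at least a 2-fold change. *Mrgprx2* passed the filter on low values through the 3 IgG RIPs alone, so its difference is given as a description. It was lower in CELF2-KI RIP than in IgG RIP by a log2 fold change of -1.86 (SE 0.551), and by -1.96 without the filter. Of the 7 other genes 0 were called by edgeR and 0 by DESeq2, and 1, *Fez1*, had an unadjusted p under 0.05, whereas edgeR called 27% of all genes between both kinds of RIP and 11.8% between IgG RIP and input. *Fez1* was lower in CELF2-KI RIP than in IgG RIP, with a log2 fold change of -2.71 (SE 1.05, edgeR FDR 0.0573), a direction in which 29.8% of all genes had an unadjusted p under 0.05. Libraries of the remaining genes overlapped. Between CELF2-KI RIP and IgG RIP, the log2 fold changes were -1.09 for *Abcb1a* (SE 1.35, edgeR FDR 0.526), -1.38 for *Ggt1* (SE 1.2, edgeR FDR 0.365) and 0.22 for *Srsf12* (SE 1.0, edgeR FDR 0.873). Between IgG RIP and input, they were 0.44 for *Rps6kb2* (SE 0.538, edgeR FDR 0.547), 0.85 for *Lims2* (SE 0.657, edgeR FDR 0.337) and -0.58 for *Cetn4* (SE 0.611, edgeR FDR 0.479). For *Pbrm1* and *Gm6713* no such pair of conditions remained. *Ggt1* and *Cetn4* reached the filter level in 4 libraries each, the 3 of their higher condition and 1 other. Their comparisons thus depend on the filter, and without it the log2 fold changes were -1.47 and -0.61.

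These differences moved when single libraries were left out. Without IgG RIP replicate 3, the sign turned for *Abcb1a* (1.5), *Srsf12* (-0.39), *Rps6kb2* (-0.36) and *Lims2* (-0.38), and the log2 fold change became -1.5 for *Fez1* and -1.3 for *Cetn4*. Without IgG RIP replicate 1 that of *Cetn4* was -0.16. For *Ggt1* it was -0.78 without CELF2-KI RIP replicate 2. Without CELF2-KI RIP replicate 1, the other 2 CELF2-KI RIPs held 0 counts of *Ggt1* and the fitted value of -7.78 (edgeR FDR 0.0198) depends on the prior count of the model.

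Relatives of the 10 genes, listed by family or complex, were read in the same fit. Of 39 listed genes 34 were tested. The other 5 comprised the receptors *Mrgprx1*, *Mrgprb2* and *Mrgprd*, with at most 2 counts in any library, and *Mrgpra1* and *Cetn1*, with no count. No tested relative was at the floor in a condition. Between both kinds of RIP, 2 relatives were higher in CELF2-KI RIP (13.4% of all genes) and 2 lower (13.5% of all genes). Between CELF2-KI RIP and input, where 30.1% of all genes were called, 4 were higher (14.6% of all genes) and 6 lower (15.5% of all genes). Between IgG RIP and input, 0 were higher (6.79% of all genes) and 1 was lower (5.01% of all genes). With DESeq2 in place of edgeR, 2 relatives were higher in CELF2-KI RIP than in IgG RIP (12.4% of all genes) and 2 lower (16.2%), 2 were higher than in input (11.2%) and 9 lower (18.5%), and from input to IgG RIP 0 were higher (7.33%) and 2 lower (7.38%). An unadjusted p under 0.05 in edgeR was reached by 7 relatives higher and 14 lower in CELF2-KI RIP than in IgG RIP (30.6% and 29.8% of all genes), 11 higher and 13 lower than in input (37.2% and 27.3%), and 8 higher and 9 lower in IgG RIP than in input (24.9% and 24.2%). The median log2 fold change over relatives was -0.28 against IgG RIP and -0.18 against input, beside -0.06 and 0.19 over all genes.

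The 10 listed PBAF and BAF subunits, partners of *Pbrm1* in chromatin remodeling, all held counts in all 3 conditions. Of the subunits that set PBAF apart from BAF, *Arid2* rose in CELF2-KI RIP over input by a log2 fold change of 1.2, while *Brd7* (-0.90) and *Phf10* (-0.33) were not called. *Smarcb1*, a core subunit, fell by 1.87. *Fez2*, the paralog of *Fez1*, stood at 26.9 ± 3.13 CPM in CELF2-KI RIP and had log2 fold changes of -0.01 against IgG RIP and 0.08 against input, neither called. *Abcb1b*, the paralog next to *Abcb1a*, held 2.36 ± 0.797, 2.25 ± 0.728 and 1.77 ± 0.249 CPM in CELF2-KI RIP, IgG RIP and input, so it was counted in the condition where *Abcb1a* was at 0. *Mrgprb1*, the neighbor of *Mrgprx2*, held 0.744, 0.845 and 0.3 CPM in the same order, with a log2 fold change of 1.51 for IgG RIP over input that was not called (edgeR FDR 0.0569).

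Among relatives of *Ggt1*, *Ggt5* rose in CELF2-KI RIP over IgG RIP (log2 fold change 1.55) and over input (1.40). *Ggt6* rose over input (1.55) but not over IgG RIP (0.007), and IgG RIP over input stood at 1.54 for it, not called. *Ggt7* fell below input (-1.08) and was not called against IgG RIP (-0.66). Of the SR proteins listed with *Srsf12*, *Srsf2* rose over input (1.0) and *Srsf6* fell below it (-1.07). *Rps6kb1*, the paralog of *Rps6kb2*, stood at 11.5 ± 1.45 CPM in CELF2-KI RIP, where *Rps6kb2* was at 0, and *Rps6ka1*, a kinase of the related RSK family, fell below input (-1.25). The focal adhesion partners of *Lims2* included *Ilk*, integrin-linked kinase, and *Rsu1*, which fell in CELF2-KI RIP below IgG RIP (-1.33 and -1.13) and below input (-1.73 and -1.73), while *Parva*, encoding a parvin, rose over IgG RIP (1.18) and *Lims1*, the paralog, was not called. *Cetn2* and *Cetn3*, the other counted centrins, stood at 13.2 ± 2.16 and 25.2 ± 6.31 CPM in CELF2-KI RIP and were not called.

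**Figure D5:**
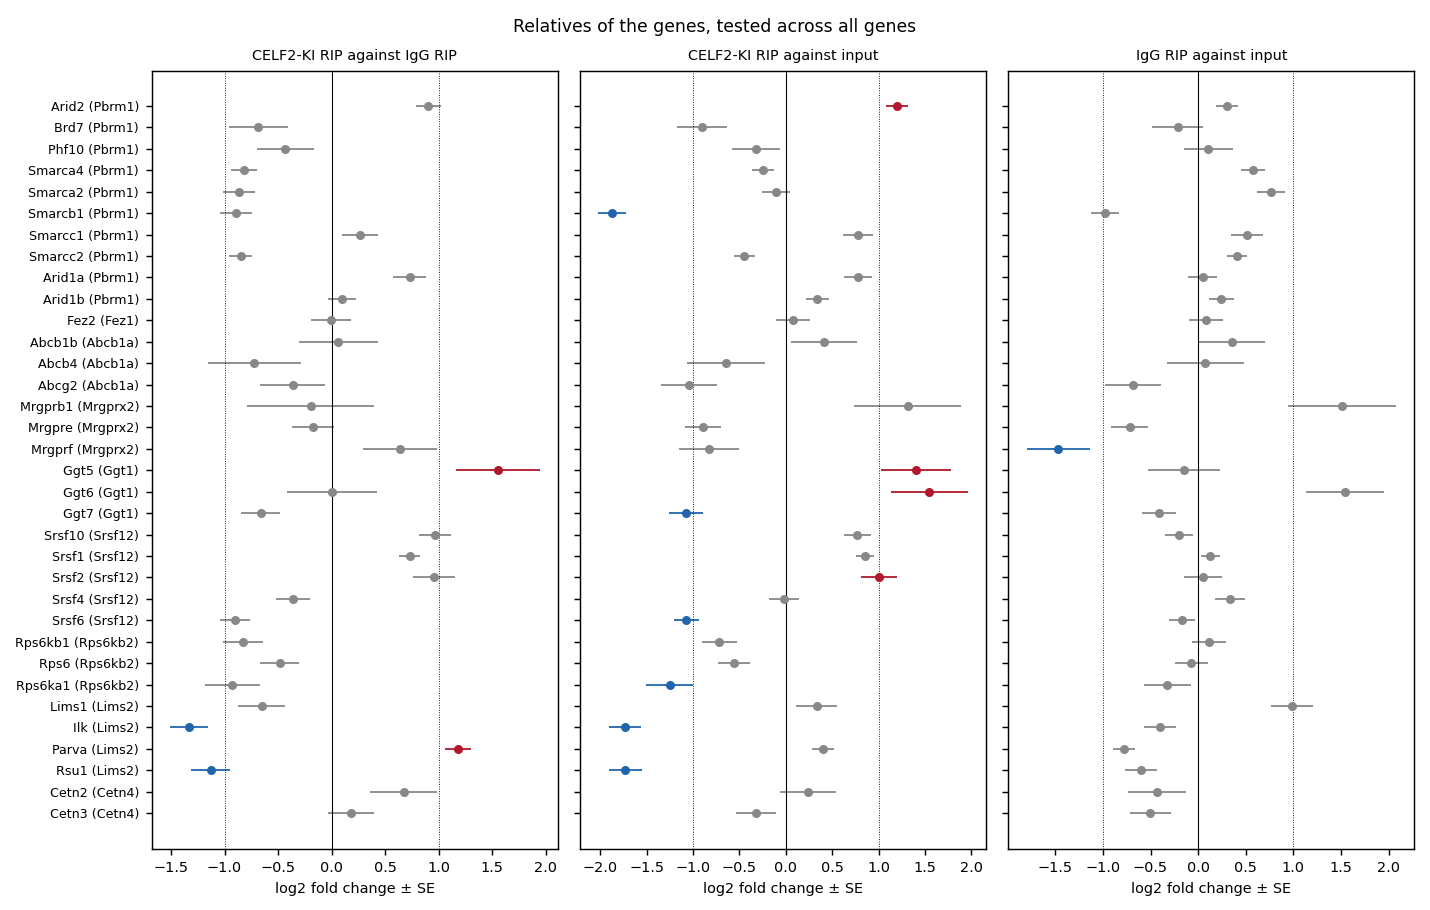
Log2 fold change ± SE of the 34 tested relatives in the 3 contrasts, with the member each belongs to in parentheses, red and blue for relatives called higher or lower, grey for the rest, and dotted lines at 2-fold. *Ilk* and *Rsu1*, partners of *Lims2*, are blue in both contrasts of CELF2-KI RIP, and *Ggt5* is red in both.

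A member shared part of its span with another gene in 3 cases, *Smim4* with *Pbrm1*, *Rundc3b* with *Abcb1a* and *Gpr17* with *Lims2*, and none was at the floor in any condition. *Smim4* held 1.84 ± 0.321, 2.84 ± 1.06 and 3.11 ± 0.176 CPM in CELF2-KI RIP, IgG RIP and input. *Gpr17*, a receptor of the oligodendrocyte lineage, held 48.9 ± 13.0 CPM in CELF2-KI RIP, where *Lims2* was at 0, against 25.4 ± 1.79 CPM over the IgG RIPs and 40.3 ± 6.23 CPM over the input libraries. The libraries were directional, but use of strand in counting is not given in the sources used here. *Bbs12*, which starts 101 bases from *Cetn4*, held 4.15 ± 0.549, 2.65 ± 0.0241 and 2.86 ± 0.472 CPM in the 3 conditions. A near neighbor of *Cetn4* was thus counted in CELF2-KI RIP. Of 19 nearest genes with a count, 3 were at the floor somewhere, *Mrgprb2*, *Carns1* and *Myo7b*. *Carns1*, 941 bases from *Rps6kb2*, was at 0 in both kinds of RIP and averaged 0.252 CPM over input. *Myo7b*, 614 bases from *Lims2*, averaged 0.0852 CPM over the CELF2-KI RIPs. The neighbors on the opposite sides, *Ptprcap* of *Rps6kb2* and *Sft2d3* of *Lims2*, averaged 0.475 and 20.4 CPM there.

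The gene with the most similar profile to a member was taken by Pearson's r of log2(CPM + 0.5) over the 9 libraries. The r given here lay between 0.958 (*Abcb1a* with *Rps23rg1*) and 0.998 (*Gm6713* with *Mageb2*), each the highest of 18555 genes over 9 points. *Mageb2* was itself at the floor in all 3 conditions, with 0.077 to 0.0892 CPM over the CELF2-KI RIPs, under the level of 3 counts, and 0 elsewhere. *Mrgprx2* was most like *Rnf169* (r 0.990), *Rps6kb2* most like *Taf7* (0.986), *Lims2* most like 1700030K09Rik (0.994) and *Cetn4* most like *Ptcd2* (0.977). *Pbrm1* was most like *Clstn2* (0.972), *Ggt1* most like 9930104L06Rik (0.979) and *Srsf12* most like *Mrpl21* (0.980). Apart from *Mageb2*, the most similar genes, 9 in number, were not at the floor in any condition. *Clstn2*, for example, held 484 to 521 CPM in input, where *Pbrm1* was at 0.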

How the data were processed

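Per the labels and the study's methods, RNA from 9 libraries (3 per condition, biological replicates) was depleted of rRNA, made into directional libraries, checked with FastQC 0.11.9, trimmed with fastp 0.23.4, freed of remaining rRNA reads with Ribodetector 0.3.1 and quantified with kallisto 0.51.1. The processing notes name mm10. The authors deposited estimated counts per RefSeq transcript, not normalized for depth or length, while the methods name an Ensembl transcriptome.

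Rows were matched by accession, ignoring the version, to a RefSeq gene table of GRCm38.p6 (86714 of 107384 rows), summed per protein-coding gene and rounded. Genes that reached 0.5 CPM in 3 or more libraries (15263, including all 10 members) were fitted with edgeR 4.0.16 (R 4.3.3, limma 3.58.1; DESeq2 1.42.0 as an alternative) with TMM scaling and 1 mean per condition. CPM use the TMM-scaled size of protein-coding counts. Before that scaling, these counts totalled 13519246 to 16836302 over the CELF2-KI RIPs, 9344255 to 14960822 over the IgG RIPs and 55229664 to 78483566 over the input libraries. SEs are the absolute log2 fold change divided by the square root of F. All columns were used (0 left out). The model was tested on simulated data. Python 3.11.15, pandas 2.3.3, scipy 1.17.1 and matplotlib 3.10.9 were used.

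The 10 members, the relatives, the marker lists and the tests were chosen with earlier results of these data known. Named genes were the members, their listed relatives, overlapping and nearest genes, the most similar gene to each member, and the 5 other floor genes with the highest CPM. Alternatives were other scalings, no filter, DESeq2, a replicate block, curated rows only, other floors and leaving out each library. Across 15263 genes, deviations of same-numbered libraries correlated at 0.110, 0.117 and 0.123 for numbers 1, 2 and 3 between CELF2-KI RIP and input, at -0.0560, 0.0429 and 0.0139 between the antibody and IgG pulldowns, and at 0.0305, 0.0646 and 0.0384 between IgG RIP and input. The main fit did not use the number as a pairing in any contrast, including CELF2-KI RIP against input, where the correlations were highest. The replicate block was applied to all contrasts. Sequences of the transcripts and proteins were not used here. A result that names 1 other gene is not reported here.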

Additional observations from a re-analysis of the deposited data

How the results depend on the processing

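Of 116 alternative values for the 8 members compared, 110 kept their direction and side of the threshold. Leaving out IgG RIP replicate 3 turned the sign for *Abcb1a* (1.5, with a range of -2.11 to 1.5 over all libraries left out in turn), *Srsf12* (-0.39, range -0.39 to 1.53), *Rps6kb2* (-0.36, range -0.36 to 0.76) and *Lims2* (-0.38, range -0.38 to 1.24), and scaling by total counts turned it for *Srsf12* (-0.16). Scaling by total counts also took *Mrgprx2* past the threshold (-2.24). Without any 1 of the IgG RIPs *Mrgprx2* no longer passed the filter and has no value. The cause was not tested.

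With the replicate block, 3962, 4435 and 1589 genes were called between CELF2-KI RIP and IgG RIP, CELF2-KI RIP and input, and IgG RIP and input, beside 4116, 4592 and 1801 without it. No member's call changed, but members were not compared between CELF2-KI RIP and input.

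Leaving out 1 library gave 3494 to 4506, 3737 to 5141 and 1105 to 2642 called genes in those contrasts. With curated rows alone, 891 genes were called between IgG RIP and input.

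The number of genes at the floor, 81, was 33 for a floor of 0 counts, 513 for a floor of 10 counts and 391 with curated rows alone, and 81 to 144 when 1 library was left out (134 and 144 without CELF2-KI RIP replicates 1 and 2, 136 without IgG RIP replicate 1). The member rows with more than 3 counts numbered 13, and 11 to 13 when 1 library was left out. The floor of CELF2-KI RIP and IgG RIP lies above that of input, and 3 counts stand for at least 0.188 CPM in every RIP library.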
